A study of Homo sapiens with 6 samples.

Results

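The mature miRNAs with numbers from 3000 to below 6000, which entered the miRNA registry late in the era of deep sequencing, were described in Caco-2 cells, a human colorectal adenocarcinoma line. Of the 2588 mature miRNAs in the count table, 895 carried such a number once 6 numbers had been left out, 508 of these had at least 1 count, and 217 made up the set described here. The 217 members were chosen by their counts, since the sum over the 6 libraries had to reach 30, so their abundance is a description and not a finding. Small RNA was sequenced from 3 input libraries of total RNA and from 3 m7G-RIP libraries, in which heat-denatured RNA from the same untreated line had been precipitated with an antibody against N7-methylguanosine (m7G). The comparison of m7G-RIP with input asks which miRNAs the antibody recovers more or less often than their abundance in the cell would give. No control precipitation without the m7G antibody was analysed here.

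A miRNA is cut from a hairpin in its primary transcript by Drosha and Dicer, which leaves a short duplex whose strands, the 5p and the 3p arm, can each be loaded into an Argonaute protein. The seed, bases 2 to 8 of the mature strand, pairs with target transcripts and defines miRNA families. The registry numbers miRNAs in the order of their submission, so that high numbers belong mostly to sequences found by deep sequencing of rare RNAs, and for some of these it is debated whether the hairpin is processed as a miRNA at all. m7G is a methylated guanosine known from mRNA caps, tRNAs and rRNA, and METTL1 is the enzyme that places it in tRNAs.

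RefSeq on GRCh38.p14 held a mature sequence for 198 of the 217 members. The 19 others were miR-4326, miR-4664-3p, miR-3653-5p, miR-4461, miR-4661-5p, miR-3607-3p, miR-3610, miR-3609, miR-3653-3p, miR-5001-3p, miR-4470, miR-3148, miR-4286, miR-4646-5p, miR-4660, miR-4485-5p, miR-4726-5p, miR-3143 and miR-3195. Sequences are written 5′ to 3′ with the seed in capitals. Those of the 8 members with the highest enrichment in m7G-RIP among the called members of at least moderate level are shown first, because runs of G recur in them.
miR-4723-5p: uGGGGGAGccaugagauaagagca
miR-5010-5p: aGGGGGAUggcagagcaaaauu
miR-4466: gGGUGCGGgccggcgggg
miR-3127-5p: aUCAGGGCuuguggaaugggaag
miR-4758-5p: gUGAGUGGgagccgguggggcug
miR-3652: cGGCUGGAggugugagga
miR-4745-5p: uGAGUGGGgcucccgggacggcg
miR-4745-3p: uGGCCCGGcgacgucucacgguc

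The 8 members at the other end of the same order, those most depleted from m7G-RIP, are shown for contrast.
miR-3909: uGUCCUCUagggccugcagucu
miR-4473: cUAGUGCUcuccguuacaagua
miR-4677-3p: uCUGUGAGaccaaagaacuacu
miR-4521: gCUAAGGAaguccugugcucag
miR-3176: aCUGGCCUgggacuaccgg
miR-3664-3p: uCUCAGGAguaaagacagaguu
miR-3613-5p: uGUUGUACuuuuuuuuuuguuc
miR-5100: uUCAGAUCccagcggugccucu
The guanosine share of the sequence ran from 34.8% (miR-4745-3p) to 72.2% (miR-4466) in the first set and from 13.6% (miR-3613-5p) to 36.8% (miR-3176) in the second.

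The members were rare. The input libraries held between 16466178 and 19628046 counts and the m7G-RIP libraries between 1654102 and 3105129, and all 217 members together held 0.121% ± 0.0075 of the input counts and 0.464% ± 0.155 of the m7G-RIP counts (SD, n = 3 libraries each). The median member had 92 counts over the 6 libraries, against 1118 for the 527 miRNAs with lower numbers or let-7 names that passed the same minimum. Totals ran from 30 to 17425, with 12 members at 1000 counts or more, 90 from 100 to below 1000 and 115 below 100. The 10 members with the most counts over the 6 libraries held 66.8% to 68.2% of the members' counts in the input libraries. In m7G-RIP they held 53.5% to 64.7%. Just inside the limit lay miR-3660 and miR-3939 with 30 counts and miR-3187-5p and miR-3200-5p with 31, and just outside lay 5 entries with 29. Levels are given in CPM, counts per 1000000 counts of a library. The line's identity was checked on marker miRNAs: all 10 intestinal and epithelial markers were present at 193 to 54882 CPM in the input, and of 12 markers of other cell types 2 were at 0 and the highest, the neuronal miR-9-5p, reached 2923 CPM. The 0 of miR-122-5p checks nothing, as it lies opposite miR-3591-3p in a class of entries that were mostly empty in this table, and the other, miR-223-3p, had no count in the input. Markers of other tissues were thus not all absent.

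By arm, 59 members carried the 5p suffix, 66 the 3p suffix and 92 none. The number began with 3 in 90 members, with 4 in 98 and with 5 in 29. For CPM the library size was scaled with TMM factors, which align the bulk of the miRNAs between libraries. At 3 counts, taken as the floor of detection, a library reached 0.235 to 0.262 CPM in the input and 0.676 to 1.11 CPM in m7G-RIP.

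Among the most abundant members, miR-4521 led the input and fell in m7G-RIP. Its levels were 320.3, 303 and 345 CPM in the input and 57.0, 46.8 and 77.7 CPM in m7G-RIP. The groups did not overlap, and the level in m7G-RIP was lower, with a log2 enrichment of -2.42 ± 0.20 (SE, edgeR's quasi-likelihood test, adjusted p = 1.2e-07). The mature sequence lies outside annotated genes at chr17:8186948-8186969 on the + strand of GRCh38. miR-3615, whose hairpin overlaps an exon of NHERF1 (an exon here is one of any GENCODE transcript on the same strand), was at 236, 251 and 245 CPM in the input and 253, 213 and 239 CPM in m7G-RIP. The ranges overlapped and the log2 enrichment was -0.06 ± 0.15 (SE, edgeR's quasi-likelihood test, adjusted p = 0.74). With total counts as library sizes the value became 1.05 and with DESeq2's size factors -0.40, both past the threshold, so its direction depends on the scaling.

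miR-3182, a 17-base entry from an intron of CDH13, was the most abundant member in m7G-RIP. The sequence lies at chr16:83508349-83508365 on the + strand of GRCh38. Its levels were 203, 132 and 190.4 CPM in the input and 1083, 599 and 1493 CPM in m7G-RIP. Every m7G-RIP library lay above every input library, with a wide spread among the former and a log2 enrichment of 2.59 ± 0.28 (SE, edgeR's quasi-likelihood test, adjusted p = 2.3e-06). miR-4443 (17 bases, outside annotated genes) and miR-4444 (18 bases, in an exon of HNRNPA3) behaved likewise. miR-4443 was at 43.5, 45.8 and 41.5 CPM in the input and 175, 138 and 186 CPM in m7G-RIP and its log2 enrichment was 1.93 ± 0.18 (SE, edgeR's quasi-likelihood test, adjusted p = 4.46e-07). miR-4444 was at 28.6, 32.0 and 34.2 CPM in the input and 79.1, 67.1 and 141 CPM in m7G-RIP, with a log2 enrichment of 1.59 ± 0.26 (SE, edgeR's quasi-likelihood test, adjusted p = 9.67e-05).
These short entries are printed because they carry much of the members' counts in m7G-RIP.
miR-3182: gCUUCUGUaguguaguc
miR-4443: uUGGAGGCguggguuuu
miR-4444: cUCGAGUUggaagaggcg
All 6 counts of miR-4444 were even, and RefSeq places its sequence at 2 loci.

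Of the other members in the top 10 of the input, miR-4326 (189.6 ± 13.0 CPM in the input and 95.5 ± 26.01 in m7G-RIP, SD, n = 3) had a log2 enrichment of -0.99 ± 0.20 (SE, edgeR's quasi-likelihood test, adjusted p = 0.000535), which turned to 0.11 with total counts as library sizes. miR-3909, from an intron of TOM1, fell further. It was at 53.1, 55.6 and 49.4 CPM in the input and 10.2, 3.83 and 4.42 CPM in m7G-RIP, and the log2 enrichment was -3.08 ± 0.33 (SE, edgeR's quasi-likelihood test, adjusted p = 1.8e-06). miR-3613-5p, from an intron of DLEU2, stood at 19.3 ± 2.41 CPM in the input and 6.53 ± 2.99 in m7G-RIP (SD, n = 3). Its log2 enrichment was -1.52 ± 0.34 (SE, edgeR's quasi-likelihood test, adjusted p = 0.00111), a call that was lost with total counts or upper-quartile factors (-0.45 and -0.70). miR-3620-3p stood at 24.1 ± 4.49 CPM in the input and 29.7 ± 11.4 in m7G-RIP (SD, n = 3), a log2 enrichment of 0.29 ± 0.29 (SE, edgeR's quasi-likelihood test, adjusted p = 0.368). Its hairpin fills a whole intron of ARF1, the arrangement of a mirtron, which is released by splicing in place of Drosha.

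**Figure D1:**
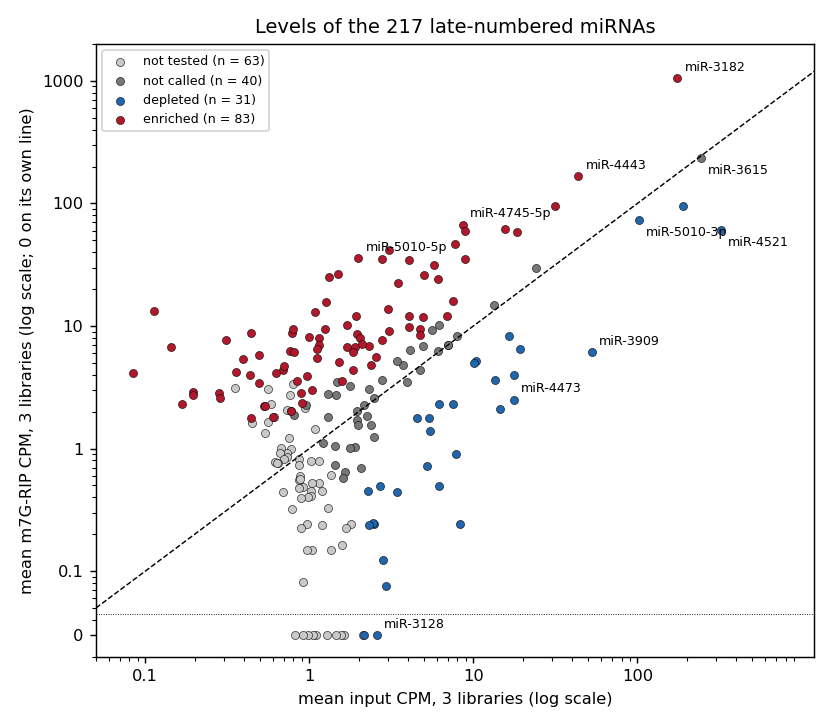
Mean CPM of the 217 members in the 3 input libraries (x axis, log scale) and the 3 m7G-RIP libraries (y axis, log scale, with 0 on its own line), where each point is a member coloured by its call in edgeR's quasi-likelihood test and the dashed line marks equal levels. The 83 enriched members lie above the line and the 31 depleted ones below it, most members lie below 10 CPM in the input, and 12 members had no count in m7G-RIP.

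Calls were made with edgeR's quasi-likelihood test over all 800 miRNAs that passed the filter on low counts, at a Benjamini-Hochberg adjusted p under 0.05. The filter asked for 1.02 CPM of the total counts in 3 libraries, which is 16.8 to 20.1 counts in an input library and 1.69 to 3.17 counts in an m7G-RIP library. Of the 217 members 154 passed and 63 did not. 68 passed in all libraries of both groups, 58 passed through the m7G-RIP libraries alone, 23 through the input libraries alone and 5 through a mixture. A member that passed through one group alone was favoured there by the filter, though it did not have to be higher. miR-3944-5p passed through m7G-RIP alone with a log2 enrichment of -0.15. The counts that follow are therefore no support for a direction of the members as a set.

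Of the 154 tested members 83 were enriched and 31 depleted, while enriched were 40.1% and depleted 38.1% of all 800 tested miRNAs. The depleted count moved with the libraries, as did the number of members that passed the filter. The depleted count was 16, 14 and 17 without input replicate 1, 2 or 3, when 124 to 127 members passed. Without m7G-RIP replicate 1, 2 or 3 it was 50, 50 and 46, when 207 to 209 passed. The median log2 enrichment was 1.22 in tested members and 0.16 over all tested miRNAs. Among the 68 members past the minimum in both groups, 33 were enriched and 15 depleted, where all 473 miRNAs of that kind gave 33.4% enriched and 45.7% depleted. Without a filter, 71 of all 217 members were enriched and 51 depleted, beside 18.3% and 24.3% of the 1744 miRNAs with at least 1 count, which include entries too rare to be members. Scaling shifted the whole table. With total counts as library sizes the median of all tested miRNAs moved by 1.09 on the log2 scale and the members' calls became 106 and 15, with upper-quartile factors they became 102 and 17, and with DESeq2's size factors the median moved by -0.34 and the calls became 72 and 34. The share of enriched among all calls of members was 72.8%, and it was 87.6%, 85.7% and 67.9% under these scalings and 58.2% without a filter.

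The miRNAs with lower numbers differed in level and in calls. Of 481 tested, 124 were enriched and 263 depleted, with a median log2 enrichment of -1.07 and a median input level of 33.3 CPM against 2.31 CPM in tested members. Within classes of input level, the members can be set beside all miRNAs of the same count minimum, members included. Below 2 CPM, 52 of 69 tested members and 150 of 207 tested miRNAs were enriched. From 2 to below 5 CPM it was 17 of 42 and 41 of 138, from 5 to below 20 CPM 11 of 34 and 46 of 147, and from 20 CPM upwards 3 of 9 and 65 of 288. Across the 154 tested members, Spearman's rho of log2 enrichment with mean input CPM was -0.56, and -0.55 across all 800, with the input libraries shared between the measures. The part of abundance and of the filter in the members' calls was not tested.

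The 8 most enriched members described next were picked among called members with an average log2 CPM of 3 or more that were higher in m7G-RIP in every same-numbered pair of libraries. miR-4723-5p, from an exon of TMEM199 at chr17:28360660-28360683 on the + strand of GRCh38, had 23, 10 and 14 counts in the input and 72, 96 and 97 in m7G-RIP at a far lower depth of the latter. Its log2 enrichment was 4.22 ± 0.42 (SE, edgeR's quasi-likelihood test, adjusted p = 8.73e-07), but it passed the filter through m7G-RIP alone, which favours a higher level there. miR-5010-5p, from an exon of ATP6V0A1, had 22, 21 and 28 counts in the input and 97, 173 and 121 in m7G-RIP and a log2 enrichment of 4.15 ± 0.34 (SE, edgeR's quasi-likelihood test, adjusted p = 1.2e-07). In both, every m7G-RIP library exceeded every input library in counts and in CPM.

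miR-4466, the member richest in G, lies at chr6:156779710-156779727 on the - strand of GRCh38, antisense to an annotated gene. It had 17, 23 and 14 counts in the input and 57, 104 and 117 in m7G-RIP, and its log2 enrichment was 4.13 ± 0.44 (SE, edgeR's quasi-likelihood test, adjusted p = 1.69e-06), again for a member that passed the filter through m7G-RIP alone. miR-3127-5p, from an intron of CNNM4, was at 2.56, 2.59 and 4.01 CPM in the input and 23.8, 42.1 and 59.7 CPM in m7G-RIP, a log2 enrichment of 3.76 ± 0.37 (SE, edgeR's quasi-likelihood test, adjusted p = 7.55e-07). miR-4758-5p, from the laminin gene LAMA5, was at 3.07, 2.43 and 2.88 CPM in the input and 27.2, 29.3 and 49.7 CPM in m7G-RIP, with 3.65 ± 0.32 (SE, edgeR's quasi-likelihood test, adjusted p = 2.83e-07). The groups of these members did not overlap, and m7G-RIP replicate 1 was the lowest m7G-RIP library for each.

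miR-3652 shares an exon with HSP90B1, which encodes an endoplasmic reticulum chaperone. It was at 3.15, 3.45 and 5.58 CPM in the input and 30.8, 33.6 and 39.4 CPM in m7G-RIP, and its log2 enrichment was 3.08 ± 0.30 (SE, edgeR's quasi-likelihood test, adjusted p = 7.17e-07). The hairpin of miR-4745 lies in PTBP1, which encodes a splicing repressor, and both of its arms rose. The 5p arm was at 9.80, 8.85 and 7.24 CPM in the input and 35.9, 65.1 and 101 CPM in m7G-RIP, a log2 enrichment of 2.95 ± 0.34 (SE, edgeR's quasi-likelihood test, adjusted p = 3.61e-06). The 3p arm was at 7.93, 9.17 and 9.60 CPM in the input and 66.8, 46.4 and 64.1 CPM in m7G-RIP, a log2 enrichment of 2.73 ± 0.24 (SE, edgeR's quasi-likelihood test, adjusted p = 2.59e-07).

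**Figure D2:**
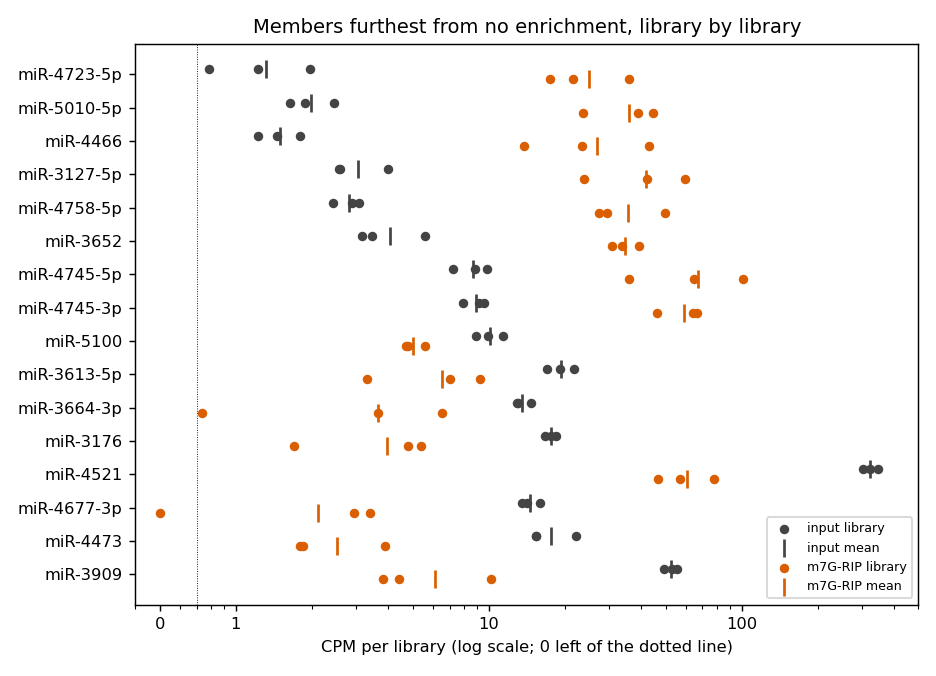
CPM of 16 members in each of the 6 libraries (x axis, log scale, with 0 left of the dotted line), 8 at each end of the order of log2 enrichment among called members of at least moderate level, where points are libraries and vertical ticks are group means. The groups do not overlap for these members, which were chosen for their place in that order.

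At the depleted end of the same order, miR-4473, from an intron of MLLT3, had 180, 282 and 177 counts in the input and 16, 8 and 5 in m7G-RIP and a log2 enrichment of -2.78 ± 0.38 (SE, edgeR's quasi-likelihood test, adjusted p = 2.28e-05). miR-4677-3p, from an intron of SDCCAG8, had 187, 181 and 155 counts in the input and 14, 13 and 0 in m7G-RIP and a log2 enrichment of -2.65 ± 0.52 (SE, edgeR's quasi-likelihood test, adjusted p = 0.000394), and it passed the filter through the input libraries alone. miR-3176, from an intron of CAPN15, had 195, 226 and 212 counts in the input and 7, 24 and 13 in m7G-RIP and a log2 enrichment of -2.16 ± 0.38 (SE, edgeR's quasi-likelihood test, adjusted p = 0.000166). The m7G-RIP counts of these members were few, and no m7G-RIP library reached the lowest input library.

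miR-3664-3p, from an intron of SHANK2, had 173, 166 and 148 counts in the input and 15, 29 and 2 in m7G-RIP and a log2 enrichment of -1.80 ± 0.45 (SE, edgeR's quasi-likelihood test, adjusted p = 0.00269). The call was lost with total counts or upper-quartile factors (-0.75 and -0.98). miR-5100, outside annotated genes, was at 8.87, 9.95 and 11.4 CPM in the input and 5.58, 4.73 and 4.79 CPM in m7G-RIP, a log2 enrichment of -0.996 ± 0.32 (SE, edgeR's quasi-likelihood test, adjusted p = 0.0124). It was lost under those scalings too, turned to 0.09 with total counts, and was lost without input replicate 2 or 3 (adjusted p = 0.052 and 0.104 in edgeR's quasi-likelihood test).

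In 12 members no m7G-RIP library held a count, and in none did the input hold no count. miR-3128, from an intron of NFE2L2, had 24, 30 and 38 counts in the input, and against the floor of 3 counts per library it was at least 3.07-fold lower in m7G-RIP. miR-3677-3p, from an intron of MIR3677HG, had 24, 36 and 18 counts in the input and was at least 2.57-fold lower. miR-4802-3p, from an intron of RBM47, had 18, 18 and 39 counts in the input and was at least 2.53-fold lower. The last did not pass the filter. The first and second were called depleted, but they passed through the input libraries alone, which favours a higher level there. For the 12 members the bound ran from 3.07 down to below the floor, where miR-3939 with 1, 18 and 11 input counts allows no fold. At the depth of m7G-RIP, absence of these members could not be told from levels below the floor.

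At the other end stood members barely present in the input. miR-3168, a 17-base entry, had 4, 0 and 0 counts in the input and 37, 46 and 56 in m7G-RIP, and its log2 enrichment was 6.69 ± 0.75 (SE, edgeR's quasi-likelihood test, adjusted p = 3.05e-06). miR-4426, which lies in the ribosomal protein pseudogene RPS27AP5, had 2, 0 and 3 counts in the input and 13, 27 and 30 in m7G-RIP, and miR-3654, which overlaps an exon of a gene that codes for no protein, had 1, 1 and 1 counts in the input and 22, 20 and 7 in m7G-RIP. These members were singled out after their values were seen, their fitted enrichment rests on 3 to 5 input counts, and each passed the filter through m7G-RIP alone.
miR-3168: gAGUUCUAcagucagac
miR-4426: gAAGAUGGacguacuuu
miR-3654: gACUGGACaagcugaggaa

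The arms gave different counts of calls. Of 35 tested 5p members 25 were enriched and 3 depleted (median log2 enrichment 1.99), of 50 tested 3p members 17 and 17 (0.20), and of 69 without a suffix 41 and 11 (1.58). Over all miRNAs with the same count minimum, 142 of 318 tested 5p entries and 89 of 309 tested 3p entries were enriched. Depleted were 127 and 134 of these. Among entries without a suffix, 71 were enriched and 44 depleted of 153 tested. Among members past the minimum in both groups 11 were enriched and 3 depleted of 16 with the 5p suffix, 8 and 6 of 24 with the 3p suffix and 14 and 6 of 28 with none. All miRNAs of that kind gave 69 and 96 of 197, 55 and 92 of 194, and 34 and 28 of 82. The 3p median turned to -0.13 with DESeq2's size factors and to 1.33 with total counts, while the 5p median stayed positive in each scaling tried, from 1.64 to 3.06. No test of the difference between arms as groups was run, since arms of 1 hairpin share a precursor.

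The arms of 1 hairpin were compared within each library, where the scaling between libraries drops out. In 237 hairpins both arms had at least 30 counts, and 39 of these were hairpins of members. edgeR's quasi-likelihood test of the arm by group term, adjusted over all 237, called a higher 5p to 3p ratio in m7G-RIP for 15 of the 39 and a lower one for 3, beside 42.2% and 20.3% of all 237. The remaining 21 were not called. The 5p arm held the larger part of the pooled counts in 7 of the 39 hairpins in the input and in 18 in m7G-RIP, with a median 5p share of 35.0% and 50%. The larger arm switched in 14 hairpins, of which 9 were among the called ones. Shares and switches were not counted over all 237 hairpins. The median change of the 5p to 3p ratio on the log2 scale was 1.39 in the 39 and 0.89 in all 237. Without input replicate 1, 2 or 3, fewer hairpins could be tested and 10 of 29, 12 of 30 and 11 of 28 were called, and without m7G-RIP replicate 1, 2 or 3 it was 16 of 34, 15 of 35 and 18 of 36.

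The hairpin of miR-5010 gave the smallest adjusted p among them. It lies on chromosome 17 with its 5p arm at chr17:42514208-42514229 on the + strand of GRCh38, and the 3p arm is
miR-5010-3p: uUUUGUGUcucccauuccccag
which has 13.6% G against 40.9% in the 5p arm printed above. The input libraries held 22, 21 and 28 counts of the 5p arm against 1154, 1346 and 1186 of the 3p arm. In m7G-RIP the counts were 97, 173 and 121 against 252, 319 and 239. The 5p share of the pooled counts was thus 1.89% in the input (95% exact Clopper-Pearson interval 1.48 to 2.38) and 32.6% in m7G-RIP (29.9 to 35.3), and the 5p to 3p ratio rose by 4.61 ± 0.27 on the log2 scale (SE, edgeR's quasi-likelihood test, adjusted p = 1.29e-05). Such intervals cover counting error only, as reads without molecular identifiers are not independent molecules. The 3p arm was the major strand in all 6 libraries, and it was called depleted by a small amount, with a log2 enrichment of -0.48 ± 0.18 (SE, edgeR's quasi-likelihood test, adjusted p = 0.0271), which turned to 0.64 with total counts as library sizes and to 0.33 with upper-quartile factors, and lost its call without any 1 of the input libraries or with a replicate block.

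In miR-3144, which lies outside annotated genes on chromosome 6, the arms exchanged places. The arms are
miR-3144-5p: aGGGGACCaaagagauauauag
miR-3144-3p: aUAUACCUguucggucucuuua
The input held 4, 2 and 1 counts of the 5p arm against 62, 82 and 79 of the 3p arm, and m7G-RIP held 8, 17 and 8 against 0, 0 and 4. The 5p share went from 3.04% (1.23 to 6.17) to 89.2% (74.6 to 97.0), a ratio change of 7.95 ± 1.32 on the log2 scale (SE, edgeR's quasi-likelihood test, adjusted p = 0.00186). Without m7G-RIP replicate 3, the only m7G-RIP library with counts of the 3p arm, the fitted change became 13.5, which is no bound. In miR-4707, from an exon of HAUS4, the input held 11, 25 and 25 counts of the 5p arm and 42, 29 and 30 of the 3p arm. m7G-RIP held 37, 54 and 26 counts of the 5p arm and 0, 0 and 1 of the 3p arm, so that the 5p share went from 37.7% (30.2 to 45.6) to 99.2% (95.4 to 99.98). The level of miR-4707-3p in the input over that in m7G-RIP was 31.7, with a counting interval from 5.56 to 1263, since it rests on 1 m7G-RIP count.
miR-4707-5p: gCCCCGGCgcgggcggguucugg
miR-4707-3p: aGCCCGCCccagccgagguucu
The 5p arm of miR-3144 lies at chr6:120015191-120015212 on the + strand of GRCh38 and that of miR-4707 at chr14:22956998-22957020 on the - strand of GRCh38. Both 5p arms hold more G than their partners.

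The other 3 hairpins with the largest called changes were miR-4646, miR-4690 and miR-3664. In miR-4646, from an intron of ABHD16A, the 5p arm had 3, 2 and 6 counts in the input and 18, 33 and 31 in m7G-RIP and the 3p arm 45, 44 and 44 counts in the input and 26, 13 and 14 in m7G-RIP. The 5p share went from 7.64% (3.87 to 13.3) to 60.7% (52.0 to 69.0), and the ratio rose by 4.20 ± 0.75 on the log2 scale (SE, edgeR's quasi-likelihood test, adjusted p = 0.00271). In miR-4690, from an intron of PCNX3, the 5p arm had 8, 11 and 12 counts in the input and 6, 0 and 2 in m7G-RIP, and the 3p arm had 9, 10 and 16 in the input and none in m7G-RIP. In miR-3664, from an intron of SHANK2, the 5p arm had 12, 17 and 17 counts in the input and none in m7G-RIP, where the 3p arm kept 15, 29 and 2. These last hairpins have an arm at 0 in a whole group, so no fold is given, and their calls (adjusted p = 0.0248 and 0.0405 in edgeR's quasi-likelihood test) were lost with limma on log2 ratios (adjusted p = 0.105 and 0.392), with a replicate block, and without m7G-RIP replicate 1. That of miR-3664 was also lost without input replicate 1 or m7G-RIP replicate 2.

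**Figure D3:**
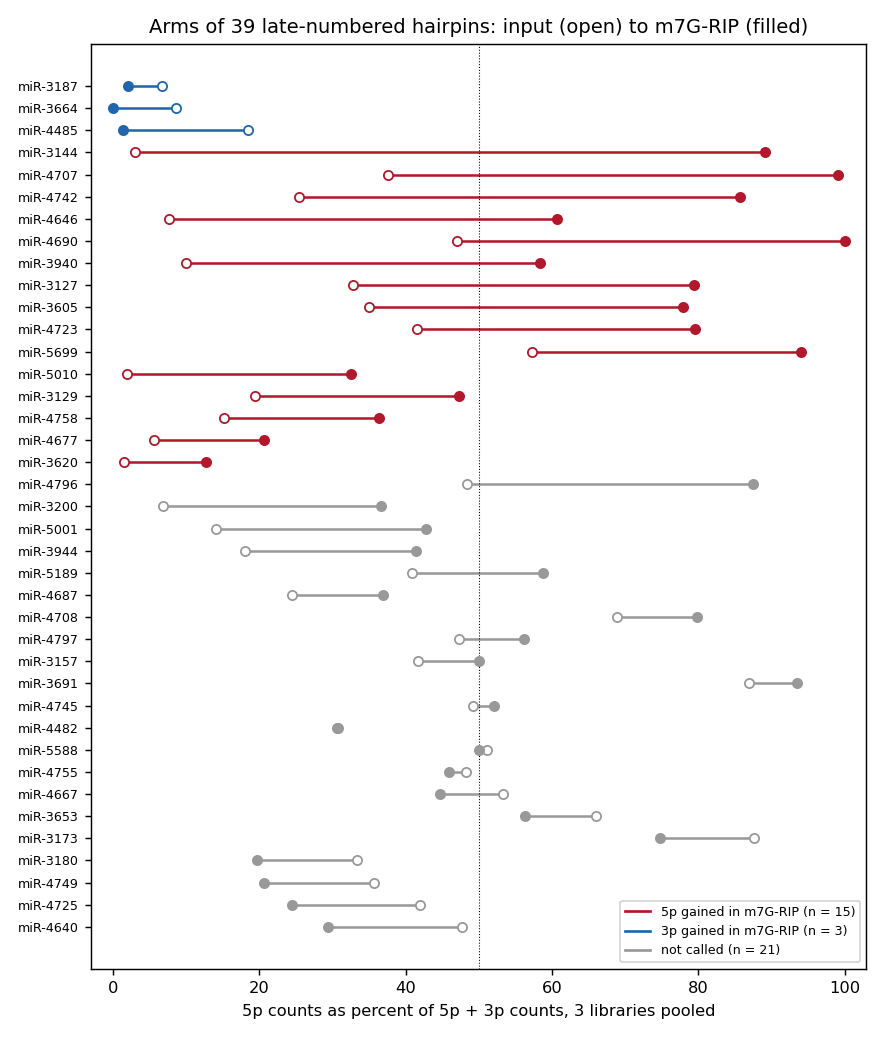
Share of 5p counts among the 5p and 3p counts of 39 member hairpins (x axis, percent, 3 libraries pooled), with open points for input, filled points for m7G-RIP and colours for the call in edgeR's test of the ratio. The 15 hairpins in red moved toward the 5p arm and the 3 in blue toward the 3p arm, and the dotted line at 50% marks equal counts.

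Not every hairpin was called. In simulated counts the test of the ratio recovered 7 of 30 changes of 1 on the log2 scale and 19 of 30 changes of 2. Lack of a call therefore does not show that a ratio stayed the same. In miR-4745 the pooled 5p share was 49.3% in the input and 52.0% in m7G-RIP, and the ratio changed by 0.14 ± 0.46 on the log2 scale (SE, edgeR's quasi-likelihood test, adjusted p = 0.811), while both arms rose as given above. miR-3691 and miR-3173 were 5p hairpins in both groups, with pooled 5p shares of 86.9% and 87.6% in the input and 93.6% and 74.7% in m7G-RIP. Of the 18 called hairpins 16 had RefSeq sequences of both arms, and in 15 of these the arm that gained in m7G-RIP held the larger share of G, while in 1 the shares were equal. The same count was not made over the called hairpins of all miRNAs. In uncalled member hairpins the arm richer in G did not always gain, miR-4640 and miR-4749 being cases. Across the 35 member hairpins with both sequences, Spearman's rho between the difference in G share and the change in the ratio was 0.37, and across all 206 it was 0.51, a description over hairpins that share the same 6 libraries.

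Members were also set in order of their guanosine content. Of 48 tested members with at least 40% G in the mature sequence 45 were enriched and none was depleted (median log2 enrichment 2.61, and 2.27 to 3.71 over the other scalings). Of 51 with 25% to below 40% G, 24 were enriched and 11 depleted (0.92), and of 40 with less than 25% G, 9 and 15 (-0.39, which turned to 0.70 with total counts and 0.43 after upper-quartile scaling). Among all miRNAs of the same count minimum, 143 of 163 tested were enriched and 7 depleted at 40% G or more, and 62 and 154 of 300 below 25%. From 25% to below 40% G, 68 were enriched and 107 depleted of 233. Within the members past the minimum in both groups, 15 of 18 were enriched and none depleted at 40% G or more, and 5 of 18 were enriched and 7 depleted below 25%, beside 56 and 6 of 71 and 40 and 107 of 189 among all miRNAs of that kind. Between these classes, 10 were enriched and 5 depleted of 22 such members, beside 46 and 76 of 157. Spearman's rho between log2 enrichment and G share was 0.56 over 139 tested members and 0.50 over 714 tested miRNAs. For C it was -0.41, for U -0.35, for A 0.03 and for length -0.06 in members. These miRNAs share libraries, and G-rich members were also rarer in the input, with a median of 1.41 CPM against 2.52 CPM below 25% G.

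A run of GGG stood in 60 tested members, of which 46 were enriched and 5 depleted, and was lacking in 79, of which 32 were enriched and 21 depleted. Among all miRNAs of the same minimum, GGG stood in 249 tested, and 159 of these were enriched and 51 depleted. It was lacking in 447 tested, of which 114 were enriched and 217 depleted. A pattern of 4 stretches of GG or more, which could in principle fold into a G-quadruplex, stood in 16 tested members. Of these 15 were enriched and none depleted, beside 51 of 54 over all miRNAs. Short gaps of any bases, G included, lay between the stretches, so a long run of G could be split into several stretches. These 16 members were rare in the input, with a median of 0.94 CPM, and the filter favoured a higher level in m7G-RIP for any that passed through it alone. Runs of G were not counted among members past the minimum in both groups, so these counts are no support for a direction. The one-letter runs overlap with the G share, and a match says only that the letters are there. miR-3178, a 17-base entry with 58.8% G, did not follow. It had 60, 83 and 76 counts in the input and 16, 37 and 18 in m7G-RIP and a log2 enrichment of 0.05 ± 0.37 (SE, edgeR's quasi-likelihood test, adjusted p = 0.916). It was singled out after its values were seen.
miR-3178: gGGGCGCGgccggaucg

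**Figure D4:**
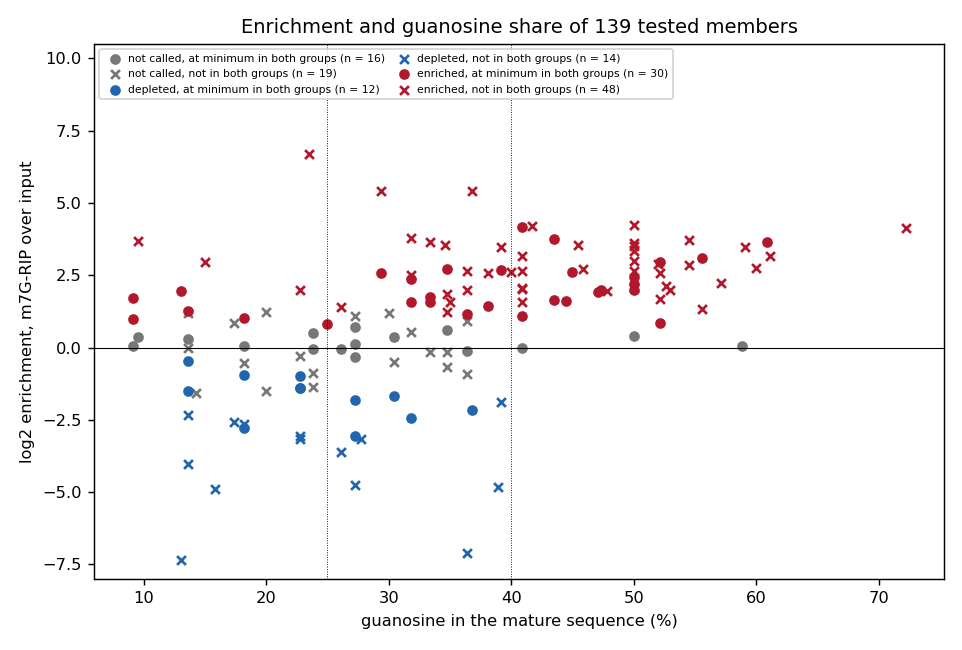
Log2 enrichment of m7G-RIP over input (y axis) against the guanosine share of the mature sequence (x axis, percent) for 139 tested members with a RefSeq sequence, with circles for members past the count minimum in both groups and crosses for the others. Right of the dotted line at 40% no member was depleted, while left of the line at 25% there were 15 depleted and 9 enriched members, which became 6 and 17 with total counts as library sizes.

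Entries of 17 or 18 bases, shorter than the usual miRNA, numbered 15. Of 14 tested, 11 were enriched and 2 depleted, beside 49 and 22 of the 102 tested members of 21 to 23 bases. Over all miRNAs with at least 30 counts these lengths gave 14 and 3 of 19, and 204 and 244 of 583. The depleted ones were miR-3155b and miR-4791. By place in GENCODE release 44, hairpins in introns gave 29 enriched and 15 depleted of 60 tested members. Those in an exon of any transcript of a protein-coding gene gave 24 and 3 of 34, those in an exon of another gene 8 and 0 of 8, those antisense to a gene 6 and 4 of 15 and those outside genes 9 and 4 of 19. Among all miRNAs of the same minimum, introns gave 126 enriched and 150 depleted of 361, exons of protein-coding genes 67 and 25 of 113, exons of other genes 28 and 51 of 101, the antisense class 14 and 14 of 36 and the class outside genes 16 and 24 of 50. The 3 members whose hairpin fills an intron were miR-3620-3p, miR-3620-5p and miR-4695-5p (in ALDH4A1), of which both 5p arms were called enriched after they had passed the filter through m7G-RIP alone.

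The 198 members with a sequence held 192 distinct seeds, and 21 members shared a seed with another listed miRNA of at least 30 counts. miR-4429 has the seed of miR-320b, miR-320c and miR-320d, and miR-4458 that of the let-7 family, which is known for repressing growth-promoting genes.
miR-4429: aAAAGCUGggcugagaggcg
miR-4458: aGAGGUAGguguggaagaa
miR-4429 was at 8.95, 6.82 and 7.42 CPM in the input and 36.7, 45.3 and 59.3 CPM in m7G-RIP, a log2 enrichment of 2.60 ± 0.26 (SE, edgeR's quasi-likelihood test, adjusted p = 1.01e-06). miR-4458, whose host is the non-coding MIR4458HG, was at 6.14, 6.42 and 5.67 CPM in the input and 25.7, 21.4 and 25.4 CPM in m7G-RIP, with 1.99 ± 0.26 (SE, edgeR's quasi-likelihood test, adjusted p = 1.61e-05). Both lay above their input in every m7G-RIP library, as did miR-320b, miR-320c and miR-320d by group mean. Of 15 seeds shared in this way, 9 had at least 2 called entries, and in 8 of these all called entries went the same way. In the other, miR-3129-5p, which passed the filter through m7G-RIP alone, was enriched with 1.99 ± 0.44 (SE, edgeR's quasi-likelihood test, adjusted p = 0.00111), while miR-199a-3p and miR-199b-3p, which have its seed, were depleted with a log2 enrichment of -3.45 each. Several of these calls rest on members that passed the filter through 1 group alone. Entries with a common seed are also not all separate, as miR-3180 and miR-3180-3p had nearly proportional counts, given below. How often called entries of other shared seeds go the same way was not counted.

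Several features of the counts bear on whether single entries can be read as miRNAs. RefSeq places the sequences of 12 members at more than 1 locus, and for 9 of them all 6 counts were whole multiples of the number of loci. miR-3179, with 4 loci, had 44, 68 and 68 counts in the input and 128, 96 and 68 in m7G-RIP, each a multiple of 4. miR-5701, with 3 loci, had 168, 78 and 51 counts in the input and 3, 0 and 0 in m7G-RIP, each a multiple of 3. A common divisor above 1 occurred in 28 of 759 entries with a single locus (3.69%). After division by the loci, miR-3116 and miR-3680-3p would fall below 30 counts, and the numbers of enriched and depleted members stayed at 83 and 31.

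miR-3180 and miR-3180-3p differ in length and share their 5′ sequence.
miR-3180: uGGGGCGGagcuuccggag
miR-3180-3p: uGGGGCGGagcuuccggaggcc
miR-3180 had 30, 24 and 16 counts in the input and 36, 46 and 18 in m7G-RIP, and miR-3180-3p had 45, 36 and 27 counts in the input and 54, 75 and 30 in m7G-RIP. The former counts were even and the latter were multiples of 3, in nearly the same proportion in each library, and whether they count separate RNAs was not tested.

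Where a mature sequence lies opposite another miRNA with at least 18 overlapping bases, the entries were mostly empty. Of 83 such entries 75 were listed at 0 in all libraries (90.4%), and among those numbered from 3000 to below 6000 it was 36 of 38 (94.7%), against 305 of 758 other entries of that number range (40.2%). The members among them were miR-3074-3p and miR-3065-3p.
miR-3074-3p: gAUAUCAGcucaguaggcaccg
miR-3065-3p: uCAGCACCaggauauuguuggag
miR-3074-3p had 157, 185 and 140 counts in the input and 35, 67 and 56 in m7G-RIP and a log2 enrichment of 0.12 ± 0.32 (SE, edgeR's quasi-likelihood test, adjusted p = 0.741), while miR-24-1-5p on the other strand of the same locus was listed at 0. miR-3065-3p had 27, 34 and 39 counts in the input and 25, 5 and 10 in m7G-RIP, a log2 enrichment of 0.37 ± 0.54 (SE, edgeR's quasi-likelihood test, adjusted p = 0.537), and miR-338-5p on the other strand had at most 3 counts. How reads on such shared loci were assigned is not given in the sources used here.

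miR-3155b lies opposite MIR3155A and had 35, 49 and 23 counts in the input and 0, 1 and 0 in m7G-RIP. Its input level was 33.6 times that in m7G-RIP, with a counting interval from 5.89 to 1337, and edgeR's quasi-likelihood test called it depleted (adjusted p = 0.000334), though it passed the filter through the input libraries alone. miR-3607-3p, whose locus RefSeq gives as the small nucleolar RNA SNORD138 (chr5:86620506-86620568), had 130, 80 and 71 counts in the input and 0, 12 and 0 in m7G-RIP. Its log2 enrichment was -2.92 ± 0.76 (SE, edgeR's quasi-likelihood test, adjusted p = 0.00326), a call that was lost with total counts as library sizes. It too passed the filter through the input libraries alone, and without m7G-RIP replicate 2, which held all its m7G-RIP counts, the fitted value became -9.09, which is no bound. miR-3199, whose hairpin overlaps its own copy, had 18, 21 and 31 counts in the input and 18, 0 and 2 in m7G-RIP and was not called.

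The counts on both arms were also set beside how far the arms are reverse complements of each other. A base counted as unpaired if it did not match the reverse complement of the other arm at the best single offset. G:U pairs and bulges were not allowed, so the count is not that of the folded hairpin. Among the 35 member hairpins with both sequences, 7 left at most 3 bases of the shorter arm unpaired, and in 4 of these the pooled 5p share of the input lay between 45% and 55%, as it did in 4 of the other 28, limits that were chosen after the values were seen. The arms of miR-4755, the most counted of the first 4, leave 2 bases unpaired.
miR-4755-5p: uUUCCCUUcagagccuggcuuu
miR-4755-3p: aGCCAGGCucugaagggaaagu
The 5p arm had 37, 26 and 22 counts in the input and 28, 19 and 9 in m7G-RIP, and the 3p arm had 36, 30 and 25 counts in the input and 36, 21 and 9 in m7G-RIP. The pooled 5p share was 48.3% in the input (40.7 to 55.9) and 45.9% in m7G-RIP (36.8 to 55.2). miR-4797, with 47.3% and 56.2%, and miR-5588, with 51.1% and 50%, were near equal in both groups at lower counts, and miR-4796 had 48.4% and 87.5%. The remaining hairpins with so few unpaired bases were uneven in the input, with 19.4% in miR-3129, 87.6% in miR-3173 and 8.63% in miR-3664. The near-equal hairpins with more unpaired bases were miR-4640 (47.7%), miR-4690 (47.0%), miR-4667 (53.3%) and miR-4745 (49.3%). How reads were assigned between such arms was not tested.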

How the data were processed

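The authors trimmed adaptors with Trimmomatic, mapped reads to GRCh38 and counted them on mature miRNAs with featureCounts. Their methods name STAR, with at most 10 loci and 1 mismatch per read, while their processing notes name Bowtie2, and how reads with several loci or on either strand were counted is not given in the sources used here. The deposited values are raw counts per miRNA and library, and the replicates were not pooled. The steps below were computed from these counts. Enrichment was fitted with edgeR 4.0.16 in R 4.3.3 on the whole table, with TMM factors, filterByExpr (minimum count 10, minimum total 15), the quasi-likelihood test and Benjamini-Hochberg adjustment, called at an adjusted p under 0.05. SE is the absolute log2 value divided by the square root of F. The ratio of 5p to 3p counts was tested with the same tool on 12 columns, with library as a block and an arm by group term. DESeq2 1.42.0 and limma 3.58.1 served as alternatives, as did other scalings, filters and thresholds and leaving out each library. Sequences and loci came from RefSeq and gene overlaps from GENCODE release 44. Both fits were checked on simulated data.

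Named members were the 10 highest in the input, 8 at each end of the order of log2 enrichment (among called members whose average log2 CPM reached 3 and whose 3 same-numbered pairs all moved one way), the 6 called hairpins with the largest change in arm ratio, the 3 members with most counts and none in 1 group, up to 10 with overlapping small RNA loci, and up to 4 on each side of the count limit. Any member named outside this rule was picked with its values in view. The members, lists and tests were chosen with earlier results of these data known. The labels do not say whether replicates came from separate cultures, so p-values measure only the spread between these libraries. No 2 libraries of a group were copies, since their counts differed far beyond sampling noise (chi-square of 17.5 to 105 per degree of freedom).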

Additional observations from a re-analysis of the deposited data

How the results depend on the processing

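Of the 154 tested members 83 were enriched and 31 depleted. The depleted count became 15 with total counts as library sizes, 17 under upper-quartile scaling, and 51 of 217 without a filter. When each library had to hold 10 counts, 64 members were tested, of which 45 were enriched and 7 depleted, and a sum of at least 100 counts left 54 enriched of 102. Leaving out 1 library gave 69 to 85 enriched and 14 to 50 depleted members, with 124 to 209 tested. For all tested miRNAs the 321 and 305 calls became 442 and 198 when library sizes were total counts, 418 and 227 under upper-quartile scaling, 281 and 342 under DESeq2's scaling, 320 and 423 when nothing was filtered, 182 and 175 of 426 when each library had to hold 10 counts, and 268 to 341 and 235 to 377 without 1 library. The 18 called member hairpins became 7 of 11 with 100 counts on both arms, 9 at an adjusted p under 0.01, and 10 to 18 without 1 library. Of the 114 called members 109 kept their direction when library sizes were total counts and 113 under upper-quartile scaling. Under each other alternative, every called member that was tested kept it, though only 52 were tested when each library had to hold 10 counts.

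Same-numbered libraries did not deviate together (correlations of -0.014, -0.028 and 0.060), so the numbers were not taken to pair them. With a replicate block 73 members were enriched and 28 depleted, and 12 member hairpins were called.

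Of 518 values of named members and hairpins under alternatives, 464 kept direction and call, 22 lost the call, 10 gained it and 22 reversed. When library sizes were total counts, miR-3615 became 1.05, miR-4326 0.11, miR-5010-3p 0.64, miR-5100 0.087 and miR-3199 0.87, and under upper-quartile scaling miR-3615 became 0.76, miR-5010-3p 0.33 and miR-3199 0.67. miR-3620-3p became -0.048 under DESeq2's scaling, -0.044 in DESeq2's Wald test and -0.031 when nothing was filtered. miR-3074-3p became -0.22, -0.21 and -0.20 in the same order, and -0.0055 when each library had to hold 10 counts. Without 1 library, miR-3615 ranged from -0.16 to 0.017, miR-3620-3p from -0.12 to 0.49, miR-3074-3p from -0.26 to 0.36, miR-3065-3p from -0.37 to 0.69, and miR-3199 from -2.73 to 0.34. The cause was not tested. Depth limits m7G-RIP most, where 34 to 45 members had no count in a library against 0 to 2 in the input.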

Other observations

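Below the count minimum, 678 of the 895 entries in the number range were left out, and 387 of them had no count in any library. On the limit, miR-3660 had 7, 11 and 7 counts in the input and 3, 1 and 1 in m7G-RIP, miR-3939 had 1, 18 and 11 and none, miR-3187-5p had 8, 11 and 4 and then 2, 3 and 3, and miR-3200-5p had 10, 4 and 2 and then 0, 5 and 10. Outside it, miR-3682-3p had 2, 1 and 1 counts in the input and 4, 17 and 4 in m7G-RIP, and miR-4754 had 10, 6 and 13 and none.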
